A study of Mus musculus with 2 samples.

Results

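Stretches of the genome were collected where long reads of mouse heart ran, in a single exon, on the strand opposite an annotated gene. A locus was kept when models classed as antisense and of 1 exon, merged where they overlapped on a strand, held at least 3 reads in each of 2 libraries. Of 14900 such loci before the read rule, 1246 were kept, or 8.36%. They stood among 11335 annotated genes and unannotated loci that had at least 3 reads in each library. The libraries, replicate 2 and replicate 1, were made from total RNA of hearts of B6CASTF1/J females, mice of an F1 hybrid strain, aged 14 days, and form 1 group, so no treatment or genotype was compared. Both carried added ERCC and SIRV spike-in RNA. The labels call the libraries biological replicates, cite 1 donor record for both and refer to females in the plural, so separate animals are not clearly named. The spread between replicate 2 and replicate 1 may be technical.

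An antisense transcript is an RNA made from the strand opposite a gene, and it can overlap the gene's exons, its introns or its ends. Some are independent noncoding RNAs, some start near the promoter of the partner gene, and others run on from a neighbouring gene. In rodent heart, an antisense RNA from between the genes of the alpha and beta myosin heavy chains is known from work on the switch between these myosins. Long-read cDNA is often primed on a poly(A) tail, and such a primer can also anneal to adenine-rich stretches inside an RNA. A read with no splice junction carries no intron sequence that shows its strand. For these reasons the sequence around the ends of the loci and the reads on the other strand are given beside the levels.

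The bases around the 3' end are shown for 8 of the 12 highest loci, each with these bases inside 1 annotated exon, because the adenines after the end set some of the highest loci apart from others. Each line gives the last 10 bases of the leading model in lower case and the next 20 bases in capitals, on the antisense strand, from the GENCODE M21 transcripts of mm10, and the name is that of the sense gene.
Klhl31, chr9:77655827-77655856, minus strand: gatactgaccGGCACGGAGGACACCGAGCT
Sept2, chr1:93507835-93507864, minus strand: aaaaaaccccAACCAAACAAAAAACAAAAA
Tmem250-ps, chr2:26138346-26138375, plus strand: gtatggcacaATCAGGAGCCCCATGGAGGG
2900097C17Rik, chr2:156391505-156391534, plus strand: cacaaaatgtAAAAAAAAAAAAAAAAAAAA
Pitpnc1, chr11:107211754-107211783, plus strand: acaccttaccAAAAAAAAAAAAAAAAGTTT
Actb, chr5:142903645-142903674, plus strand: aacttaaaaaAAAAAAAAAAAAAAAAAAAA
Qk, chr17:10212392-10212421, plus strand: tctttcaattAAAAACAAAACACAAAAGAA
Cavin1, chr11:100958466-100958495, plus strand: cggtttgtttAAAAAAAAAAAAAAAAGCCC
The 20 bases after the end held 20 adenines at 2900097C17Rik and Actb and 16 at Sept2, Pitpnc1, Qk and Cavin1. They held 5 at Klhl31 and Tmem250-ps. At Sept2, Tmem250-ps and Qk the leading model shown ended inside the merged locus. The 3' ends of the libraries' leading models lay 677 bases apart at Klhl31, 142 at Sept2 and 28 at Tmem250-ps. At the others shown they were the same base.

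Replicate 2 held 972159 reads and replicate 1 held 896941. Levels are given as reads and as CPM, the usual scaling to library size. The scaling used the 926560 reads of replicate 2 and the 858071 of replicate 1 that were neither spike-in nor classed as genomic, so that 1 read was worth 1.08 CPM in replicate 2 and 1.17 in replicate 1. Where 0 reads were counted the limit is 3 reads, or 3.24 CPM (replicate 2) against 3.50 CPM (replicate 1), and all intervals and floors cover counting error only. All 8 heart muscle markers were present, from Myh6, the alpha myosin heavy chain, with 28537 reads in replicate 2 and 26832 in replicate 1, down to Ryr2, the calcium release channel, with 43 in replicate 2 and 61 in replicate 1. All 3 atrial markers were present too, among them Nppa with 1557 reads in replicate 2 and 1783 in replicate 1. Of the skeletal muscle markers, Acta1, which the heart also expresses, had 525 reads in replicate 2 and 522 in replicate 1, and Myh1, Myh2, Myh4 and Tnnt3 had 0. Of the liver markers, Alb had 1 read in replicate 2 and 0 in replicate 1, and the others had 0 in both. The lung marker Scgb1a1 had 7 reads in replicate 2 and 111 in replicate 1, beside 1 of Sftpc and 0 of Sftpa1 in replicate 2 and 2 and 5 in replicate 1. The red cell markers Hba-a1 and Hbb-bs had 6833 and 3544 reads in replicate 2, and 7234 and 3749 in replicate 1. The part of blood or lung RNA in the antisense reads was not tested. In such bulk tissue, fewer cells of a type and less RNA per cell cannot be told apart.

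Antisense reads were nearly all unspliced and were spread thinly over many loci. Single-exon models took 97.0% of antisense reads in replicate 2 and 96.9% in replicate 1. Replicate 2 had 9981 such models with 28371 reads, and replicate 1 had 10053 with 29632. In replicate 2, 63.4% of the models rested on 1 read, and in replicate 1 62.0%. The 1246 loci held 15937 of these reads in replicate 2 (56.2%) and 16414 in replicate 1 (55.4%). They summed to 17200.2 CPM in replicate 2 and 19129.0 in replicate 1 (18164.6 ± 1363.8, SD, n = 2), which is 1.72% and 1.91% of the reads behind CPM in replicates 2 and 1. The median locus had 6 reads in each library, 259 loci had at least 10 reads in both and 9 had at least 100 in both. The 12 highest loci took 28.5% of the reads of all 1246 in replicate 2 and 26.3% in replicate 1. Set beside them by the same read rule, 23 spliced antisense loci held 218 reads in replicate 2 and 242 in replicate 1. Likewise, 72 single-exon loci between genes held 856 in replicate 2 and 879 in replicate 1.

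The loci were chosen by their read counts in both libraries, so the levels are a description. Of the 1246 loci, 422 were just inside the rule, with 3 reads in a library, and their largest gap was at Gse1, with 3 reads in replicate 2 and 16 in replicate 1. Another 553 were just outside it, with 2 reads in a library, and their largest gap was at Esam, with 2 reads in replicate 2 and 21 in replicate 1. Loci numbered 5086 in replicate 2 alone and 5159 in replicate 1 alone, and 4655 were seen in both. Over the 1246 loci, log2 CPM in the libraries correlated with a Pearson r of 0.842. The points share the read rule, which removes low and unequal loci.

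The highest locus lay on chromosome 17 opposite Gm26917, an annotated long noncoding RNA (ENSMUSG00000097971.3; chr17:39843013-39846245, minus strand). It had 1277 reads in replicate 2 and 1160 in replicate 1 (1365.0 ± 18.6 CPM, SD, n = 2), against 4 sense reads in replicate 2 and 8 in replicate 1. Sense reads are those of all annotated genes of the other strand that overlap the locus. Reads classed as genomic are left out of them unless stated, so the sense counts can be too low. Its 5' end lay 108 bases downstream of the end of CT010467.1, an annotated ribosomal RNA gene on the same strand. Exons of Gm26917 covered the whole locus, and the annotation holds no gene on the locus's own strand.

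Long 3' untranslated regions of protein-coding genes held most of the other leading loci. Opposite Klhl31, a kelch protein of muscle, the locus chr9:77655847-77660127 had 516 antisense and 22 sense reads in replicate 2, and 562 and 14 in replicate 1. Opposite Nfia, a transcription factor of the nuclear factor I family, chr4:98111218-98115886 had 481 antisense and 16 sense reads in replicate 2, and 479 and 23 in replicate 1. In both libraries each of these loci had many more reads than its sense gene.

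Further leading loci differed in how they stood to the sense gene. Opposite Sept2, a septin of the cytoskeleton, chr1:93507713-93509733 had 384 antisense and 57 sense reads in replicate 2, and 364 and 54 in replicate 1. The sense reads are summed over 2 annotated genes of that name. Opposite Tmem250-ps, annotated as a long noncoding RNA, chr2:26136924-26138383 had 423 antisense and 3 sense reads in replicate 2, and 324 and 2 in replicate 1. Opposite 2900097C17Rik, another long noncoding RNA, chr2:156387222-156391514 had 191 antisense and 80 sense reads in replicate 2, and 189 and 104 in replicate 1. Antisense reads outnumbered sense reads at these 3 loci in both libraries. Pitpnc1, which encodes a phosphatidylinositol transfer protein, had, at chr11:107207892-107211763, 171 antisense and 41 sense reads in replicate 2, and 173 and 30 in replicate 1. Cavin1, a structural protein of caveolae, had, at chr11:100955212-100958475, 104 antisense and 88 sense reads in replicate 2, and 90 and 30 in replicate 1. Actb, the beta actin gene, had fewer antisense than sense reads at chr5:142901296-142903654, with 126 antisense and 372 sense reads in replicate 2, and 74 and 259 in replicate 1. Qk, an RNA-binding protein, likewise had, at chr17:10205701-10216778, 121 antisense and 319 sense reads in replicate 2, and 76 and 249 in replicate 1.

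**Figure D1:**
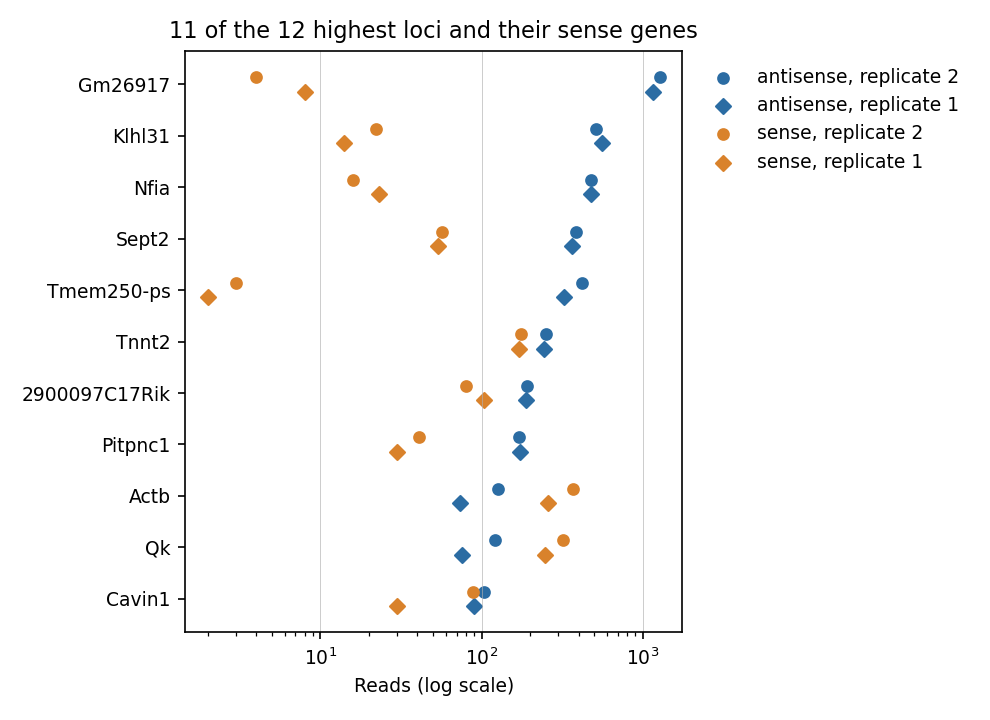
Reads (log axis) of 11 of the 12 loci with the highest mean CPM in blue and of the annotated genes on the other strand in orange, with circles for replicate 2 and diamonds for replicate 1. From Gm26917 to Tmem250-ps the antisense reads lie far to the right of the sense reads, and at Actb and Qk they lie to the left.

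Tnnt2, the cardiac troponin T gene, held the highest locus with hardly any exon sequence. The locus chr1:135849741-135850379, on the minus strand, had 252 reads in replicate 2 and 245 in replicate 1 and was 639 bases long, with 0.313% of it in Tnnt2 exons. Tnnt2 had 177 sense reads in replicate 2 and 170 in replicate 1 in the tables used here, all on incomplete or unannotated forms and 0 on annotated transcripts in either library. Whether these counts hold all Tnnt2 reads could not be settled here, so the sense count may be too low, and no ratio to sense is read at this locus.

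Placed against GENCODE M21, the largest class of loci was intronic, while the reads were concentrated in exons. Of the 1246 loci, 515 (41.3%) lay in introns with no base in an exon of the sense gene, 421 (33.8%) covered exon and intron, and 230 (18.5%) lay wholly in exons. Another 48 ran past the gene's 3' end, 28 ran past its 5' end, and 4 had no annotated gene on the other strand. In all, 727 loci (58.3%) shared at least 1 base with an exon of the sense gene, and 310 had at least 50% of their length in exons. Some shared hardly more than an end, such as the locus of Tmem183a with 0.0264% in exons. The 230 loci wholly in exons took 46.7% of the loci's reads in replicate 2 and 43.8% in replicate 1 (45.3% ± 1.99, SD, n = 2). The 515 intronic loci took 22.3% in replicate 2 and 24.7% in replicate 1 (23.5% ± 1.72). At least 50% of the locus was 3' untranslated region in 230 loci, not all of them among those wholly in exons, and these took 37.0% of the reads in replicate 2 and 35% in replicate 1. At least 50% was coding sequence in 8 loci.

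The merged loci had a median length of 2935.5 bases, with quartiles of 1895.8 and 4054.8. Each library contributed 1 model to 1059 loci, so the length is that of merged models and not of single reads. Loci wholly in exons had a median of 1844.5 bases, intronic ones 2957.0 and those over exon and intron 3477.0. The longest with at least 10 reads in each library were in Nfyc, a subunit of the CCAAT-binding factor NF-Y (11875 bases), Qk (11078 bases), Nav2 (11004 bases), Neat1, the long noncoding RNA of paraspeckles (10898 bases), and Ryr2 (9035 bases). Each of these loci was merged from 3 to 5 models, so its length need not be that of any 1 model. The Nfyc locus had 22 reads in replicate 2 and 20 in replicate 1, and the Nav2 locus had 12 in replicate 2 and 10 in replicate 1. The lowest length was 1 base, at Gm29371.

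Model 5' ends at the partner's annotated end were more frequent than model 5' ends near its annotated start. These are ends of merged models and not of single reads, so they are no count of RNA starts. Whether model ends were set to annotated positions was not tested. The 5' end of 113 loci fell exactly on the last base of an annotated sense transcript, and 126 fell within 50 bases of such an end. These 113 loci held 3820 reads in replicate 2 and 3663 in replicate 1, and 78 of them had at least 50% of their length in 3' untranslated region. Klhl31, Sept2, Pitpnc1 and Gm26917 were among them. By contrast, 65 loci started within 500 bases of an annotated sense start. An annotated gene on the locus's own strand overlapped 25 loci, and one ended within 5 kb upstream of 120 loci. RefSeq gene starts lay on the same strand in, or up to 500 bases before, 12 loci, among them Stk35os1 opposite Stk35.

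The intronic loci have by definition no base in an annotated exon of the sense gene, which largely fixes how few sense reads share their bases. Of the 515 intronic loci, 459 (89.1%) in replicate 2 and 461 (89.5%) in replicate 1 had 0 reads of any sense model with an exon on the same bases. The 5 intronic loci with the most reads lay in Ryr2, Ryr2 again, Zbtb20, Spred2 and Nedd4, and all 5 had 0 sense reads on the same bases in both libraries. Zbtb20, a zinc finger repressor, had, at chr16:43464596-43466964, 44 antisense and 45 sense reads in replicate 2, and 57 and 47 in replicate 1. Spred2, an inhibitor of Ras signalling, had, at chr11:19925970-19929980, 39 antisense reads and 1 sense read in replicate 2, and 48 and 0 in replicate 1. Nedd4, a ubiquitin ligase, had, at chr9:72663762-72664944, 40 antisense and 242 sense reads in replicate 2, and 42 and 201 in replicate 1.

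Ryr2, the calcium release channel of the sarcoplasmic reticulum, held 9 loci, the most of any gene, over a span of 554 kb. Together they had 172 antisense and 43 sense reads in replicate 2, and 274 and 61 in replicate 1. Whether the sense count of Ryr2 is too low was not tested. The highest, chr13:12097769-12104521, had 74 reads in replicate 2 and 104 in replicate 1, and chr13:11860100-11864519 had 36 in replicate 2 and 77 in replicate 1. The other loci of Ryr2 had from 3 to 25 reads in replicate 2 and from 6 to 29 in replicate 1. No locus of Ryr2 had more reads in replicate 2 than in replicate 1. In all, 130 genes held at least 2 loci, and 6 held at least 4, namely Ryr2, Ablim1, Nfia, Pdlim5, Qk and Smyd1. Loci of a gene share their sense partner and are not independent of each other. Apart from its leading locus in the 3' untranslated region, Nfia held 3 intronic loci of 5 to 13 reads.

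At most loci the antisense reads were fewer than the sense reads of the whole gene. The share sets 1 locus against all sense reads of the overlapping genes, not against sense reads on the same bases. Over the 1242 loci with an annotated sense gene, the median share of antisense among antisense and sense reads was 19.1% in replicate 2 and 21.4% in replicate 1 (20.3% ± 1.64, SD, n = 2). The quartiles were 7.42% and 50% in replicate 2 and 7.87% and 53.7% in replicate 1. Antisense reads outnumbered sense reads at 283 loci in replicate 2 and 319 in replicate 1, and at 246 in both. These values leave the genomic class out of the sense reads, and with it counted the median share was 17.2%. Across the 1242 loci, log2 of mean antisense and of mean sense reads plus 1 correlated with a Pearson r of 0.0104 and a Spearman rho of 0.0164, where both counts come from the same libraries and loci of a gene share a sense count. The read rule leaves out loci with few antisense reads, so these values describe the kept loci and not antisense loci at large. The median share over loci wholly in exons was 44.1% in replicate 2 and 47.0% in replicate 1. Over intronic loci it was 16.0% in replicate 2 and 17.3% in replicate 1, and over loci past the gene's 3' end 51.8% in replicate 2 and 47.3% in replicate 1.

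**Figure D2:**
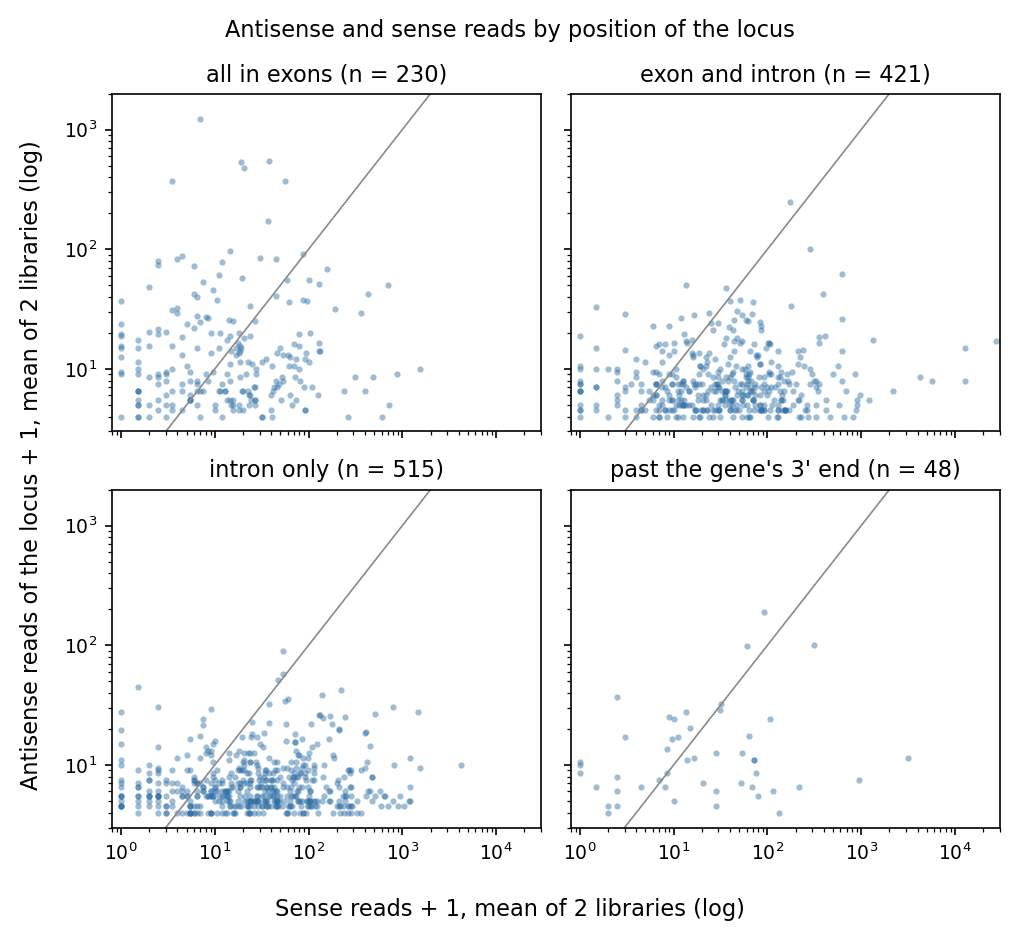
Mean antisense reads of each locus plus 1 against mean sense reads plus 1 (both log axes), in a panel for each position; the line marks equal reads. Most intronic loci lie below the line, and the loci wholly in exons lie on both sides, the highest of them far above it.

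Among loci with at least 20 antisense and 20 sense reads over both libraries, Klhl31, Nfia, Tacc1 and Cdv3 were among the 5 with the highest ratio of antisense to sense. Tacc1, a coiled-coil protein of the centrosome, had, at chr8:25154552-25158033, 87 antisense and 16 sense reads in replicate 2, and 105 and 11 in replicate 1. Cdv3 had, at chr9:103353718-103355313, 90 antisense and 9 sense reads in replicate 2, and 65 and 13 in replicate 1. At 131 loci the genes on the other strand had under 3 reads in each library, the genomic class left out. The 3 of these with the most antisense reads lay opposite Gm10874, Zbtb38 and Rc3h2. Gm10874, a long noncoding RNA, had, at chr5:138363272-138364260, 87 antisense reads in replicate 2 and 82 in replicate 1, and 0 sense reads in both. Zbtb38, a protein that binds methylated DNA, had, at chr9:96683471-96685423, 81 antisense and 2 sense reads in replicate 2, and 77 and 1 in replicate 1. Rc3h2, an RNA-binding protein of the Roquin family, had, at chr2:37371030-37374668, 75 antisense and 2 sense reads in replicate 2, and 72 and 1 in replicate 1. At the mitochondrial gene mt-Nd6, whose product is a subunit of complex I, the locus chrM:13565-14145 had 11 antisense reads and 1 sense read in replicate 2, and 12 and 0 in replicate 1.

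The leading models' 3' ends agreed between the libraries more often than their 5' ends did. The leading model of a locus ended at the very same base in both libraries at 845 loci (67.8%), and within 50 bases at 1040 (83.5%). The 5' end was the same base at 288 loci (23.1%) and within 50 bases at 466 (37.4%). The median distance between the libraries was 0 bases for the 3' end and 395 for the 5' end. The 5' ends that fell on an annotated sense end were the same base in both libraries at 63 of 113 loci. By the same measure, 67 of the 72 single-exon loci between genes (93.1%) and 23 of the 23 spliced antisense loci had 3' ends within 50 bases. The models carry no read-by-read ends, so the spread of reads within a locus was not seen, nor how sharp the RNA ends were.

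**Figure D3:**
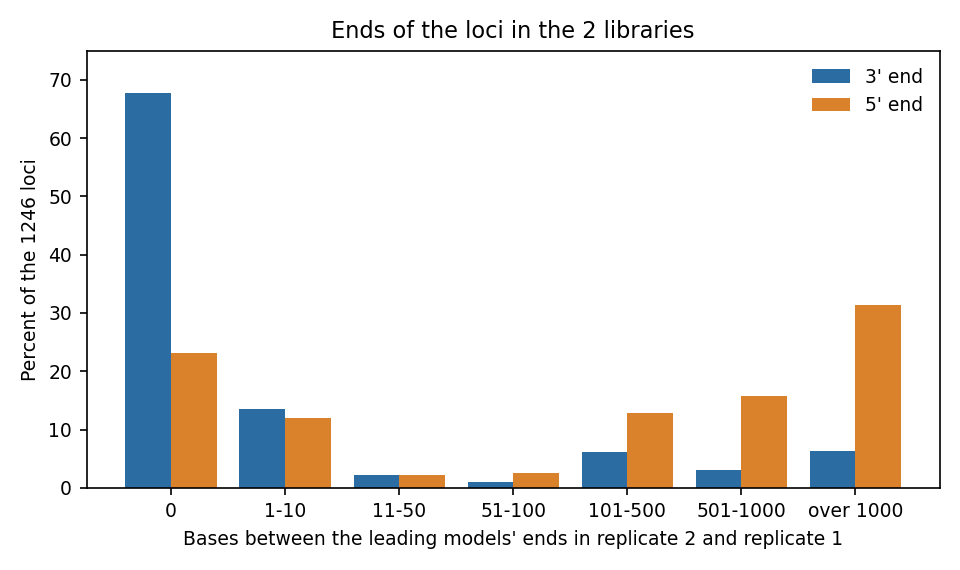
Percent of the 1246 loci (vertical axis) by the distance in bases between the leading models' ends in replicate 2 and replicate 1 (horizontal axis), for the 3' end in blue and the 5' end in orange. At distance 0 stand 67.8% of the 3' ends and 23.1% of the 5' ends, and 31.4% of the 5' ends lie over 1000 bases apart.

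Adenine-rich sequence followed the 3' end at many of the loci that could be read, as in the lines for Actb, Cavin1 and Pitpnc1 above. The next 20 bases lay in 1 annotated exon at 372 of the 1246 loci (29.9%), none of them intronic, so a check over all loci is void and the values hold for these 372. At least 12 of the 20 bases were adenine at 164 of them, or 44.1% (95% exact interval 39.0 to 49.3%). Of all 20-base windows of the antisense strand in the same 369 exons, 3.48% held as many. All 20 bases were adenine at 45 loci. The share was 59.5% of 200 loci wholly in exons, 20.1% of 134 over exon and intron, and 47.4% of 38 past the gene's 3' end. Taking each library's own leading models, it was 44.8% in replicate 2 and 43.7% in replicate 1.

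The letters of the polyadenylation signal, AATAAA or ATTAAA, read on the antisense strand only, stood in the last 40 bases of 24 of 352 loci, or 6.82% (95% exact interval 4.42 to 9.98%). They stood in 5.44% of all such windows of the 369 exons used above, which were chosen by the bases after the end. The 352 loci, read by their last 40 bases, are not the same set as the 372. Of the loci with at least 12 adenines, 139 (84.8%) had 3' ends within 50 bases in the libraries, and of the 208 with fewer, 164 (78.8%). Some leading loci had no such stretch, with 5 adenines at Klhl31, Tmem250-ps and Zbtb38. What part priming on adenine stretches had in these reads was not tested.

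**Figure D4:**
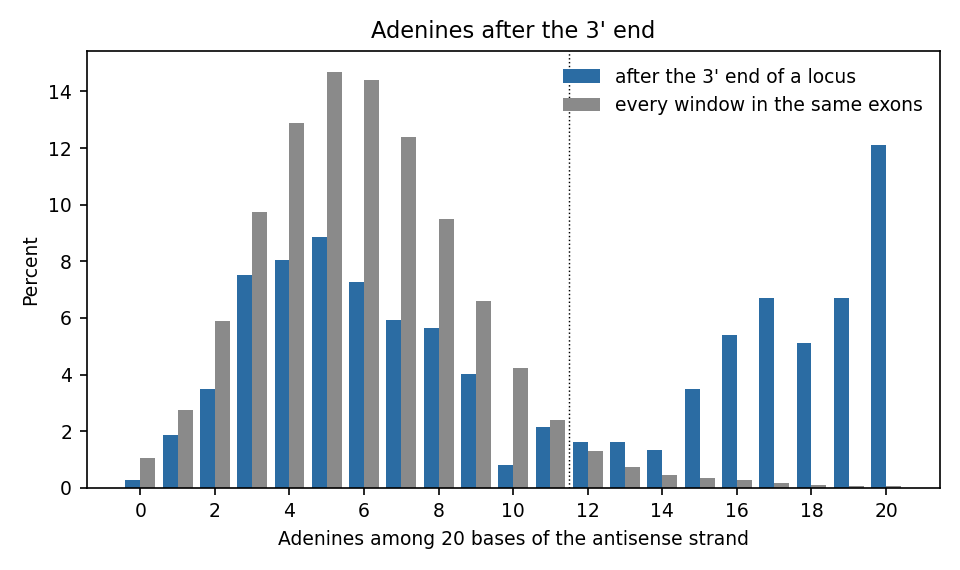
Percent (vertical axis) of the 372 readable loci in blue, and of every 20-base window in the same exons in grey, by the number of adenines (horizontal axis); the dotted line marks the limit of 12 adenines. The loci form a group around 5 adenines, where the windows lie too, and another from 15 to 20, which holds 12.1% of the loci at 20 adenines.

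The ERCC spike-ins, synthetic RNAs added to the samples, also had reads in the antisense class. Of 12825 spike-in reads in replicate 2 and 12223 in replicate 1, the antisense class held 104 (0.811%) in replicate 2 and 120 (0.982%) in replicate 1. Antisense reads, spliced ones included, were 3.05% of mouse reads in replicate 2 and 3.46% in replicate 1. The spike-in antisense reads fell on 4 of 45 spike-ins with reads in replicate 2 and 4 of 49 in replicate 1, the same 4 in both, and 1 of them gave 70 in replicate 2 and 83 in replicate 1. None of the 4 had a sense read in either library, and the other spike-ins had no antisense reads. Whether the 4 reference sequences are stored on the other strand could not be settled here. If they are, these would be sense reads. The spike-in percentages are therefore no measure of antisense background.

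Genes with a locus were longer than others. Of 9985 annotated genes with at least 3 reads in each library, 888 (8.89%) held a locus, with a median span of 49.2 kb against 20.3 kb for the others. Their median was 33 reads in each library, against 24 in replicate 2 and 22 in replicate 1 for the others. A locus was held by 2.54% of genes under 10 kb, 6.90% from 10 to 30 kb, 12.2% from 30 to 100 kb and 21.4% from 100 kb. By the gene's own level it was 6.52% of genes with a mean of 3 to 10 reads and 17.8% of those with at least 300.

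Across 10 gene lists of heart function, 41 of 188 detected genes (21.8%) held a locus, against 8.89% of all detected genes. So did 2 list genes under the level of detection, 43 in all. The lists differ from other genes in span and level. The cardiac transcription factors had 7 of 15 detected genes with a locus (46.7%) and a median span of 67.8 kb. Calcium handling and excitation-contraction coupling had 6 of 15 (40%; 61.8 kb). The sarcomere had 8 of 25 (32.0%; 23.9 kb) and fatty acid uptake and oxidation 6 of 21 (28.6%; 27.0 kb). The extracellular matrix had 4 of 26 (15.4%; 53.1 kb) and nuclear-encoded oxidative phosphorylation 4 of 28 (14.3%; 8.30 kb). The citric acid cycle and glycolysis had 2 of 17 each (11.8%) and translation 2 of 19 (10.5%). None of the 5 detected erythroid genes held one. With at least 10 reads in each library at a locus, the order of the lists changed. Calcium handling then had 3 of 15 (20.0%), the sarcomere 5 of 25 (20.0%) and cardiac transcription factors 2 of 15 (13.3%). Fatty acid uptake and oxidation had 2 of 21 (9.52%), oxidative phosphorylation 1 of 28 (3.57%), and the remaining lists 0.

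Among regulators of the heart, the balance of antisense and sense reads differed from gene to gene. Myocd, the coactivator of serum response factor in heart and smooth muscle, had, at chr11:65174921-65178071, 19 antisense and 10 sense reads in replicate 2, and 29 and 6 in replicate 1. Tbx20, a T-box factor of heart development, had, at chr9:24741867-24749307, 21 antisense reads in replicate 2 and 15 in replicate 1, and 0 sense reads in both. Ppargc1a, a coactivator of mitochondrial genes, had, in an intron, 8 antisense and 29 sense reads in replicate 2, and 20 and 30 in replicate 1. Among calcium handling genes, Trdn, which encodes triadin of the calcium release complex, had 39 antisense and 440 sense reads in replicate 2, and 43 and 346 in replicate 1. Cacna1c, the L-type calcium channel, held 3 loci that together had 18 antisense and 18 sense reads in replicate 2, and 33 and 25 in replicate 1.

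At Myh6, Tpm1 and the named genes of metabolism the antisense reads were few beside the sense reads. At Ttn, which had far fewer sense reads than Myh6, the antisense reads were a larger share. Whether the sense count of Ttn is too low was not tested. Myh6 had 18 antisense and 28537 sense reads in replicate 2, and 14 and 26832 in replicate 1, an antisense share of 0.0630% in replicate 2 and 0.0521% in replicate 1. Tpm1, a tropomyosin, had at its higher locus 16 antisense and 13632 sense reads in replicate 2, and 12 and 11856 in replicate 1. Ttn, which encodes titin, held 3 loci, the highest with 18 antisense and 64 sense reads in replicate 2, and 30 and 57 in replicate 1. Uqcrc1, a core subunit of complex III, had 11 antisense and 5907 sense reads in replicate 2, and 15 and 5511 in replicate 1. Sdhb, of complex II, had 8 antisense and 1715 sense reads in replicate 2, and 9 and 1386 in replicate 1. Eci1, which isomerises unsaturated fatty acids for oxidation, had 20 antisense and 458 sense reads in replicate 2, and 15 and 337 in replicate 1. Cd36, a fatty acid transporter, had 11 antisense and 437 sense reads in replicate 2, and 16 and 474 in replicate 1. The lists' remaining named genes had 3 to 6 antisense reads in replicate 2 and 4 to 10 in replicate 1. They were Mdh1 and Ogdh of the citric acid cycle, Pfkm and Hk1 of glycolysis, the collagen genes Col4a1 and Col1a1 and the translation factors Eif4g2 and Eef1a1. Their sense reads ran from 114 at Hk1 to 2314 at Mdh1 in replicate 2, and from 92 to 2074 at the same genes in replicate 1.

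Between the libraries, few loci differed by more than counting error. Each feature's reads were set against the library totals by a two-sided exact binomial test with Benjamini-Hochberg adjustment over 10348 genes and loci with at least 10 reads in total, of which 1.97% passed an adjusted p of 0.05 (0.841% higher and 1.13% lower in replicate 2). Of 792 of the 1246 loci tested, 6 passed, 0 of them higher and 6 lower in replicate 2. At an unadjusted p of 0.05, 54 loci passed, or 6.82%, against 9.63% of all features. The read rule needs reads in both libraries and so removes unequal loci, and of 49 tested loci outside it 21 passed. The count is therefore a description of the loci kept. The test compares these libraries, not conditions.

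All 6 were lower in replicate 2. At Neat1 the locus had 13 reads in replicate 2 and 52 in replicate 1, a log2 ratio of -2.11 (95% exact interval -3.11 to -1.21, adjusted p = 3.39e-05 by the exact binomial test), and Neat1 had 18 sense reads in replicate 2 and 28 in replicate 1. At Zbtb16, which encodes a zinc finger transcription factor, it had 14 antisense and 0 sense reads in replicate 2, and 45 and 3 in replicate 1, with a log2 ratio of antisense reads of -1.80 (-2.78 to -0.90). At Nampt, an enzyme of NAD synthesis, it had 16 antisense and 47 sense reads in replicate 2, and 50 and 64 in replicate 1, with a log2 ratio of antisense reads of -1.75 (-2.67 to -0.92). At Picalm, a clathrin assembly protein, it had 26 antisense and 32 sense reads in replicate 2, and 66 and 38 in replicate 1, with a log2 ratio of antisense reads of -1.45 (-2.17 to -0.78). The second locus of Ryr2 had a log2 ratio of -1.21 (-1.82 to -0.62). The sense reads of these 5 genes were lower in replicate 2 as well, in number. The median log2 ratio was -0.11 over the tested loci and -0.01 over all features tested.

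**Figure D5:**
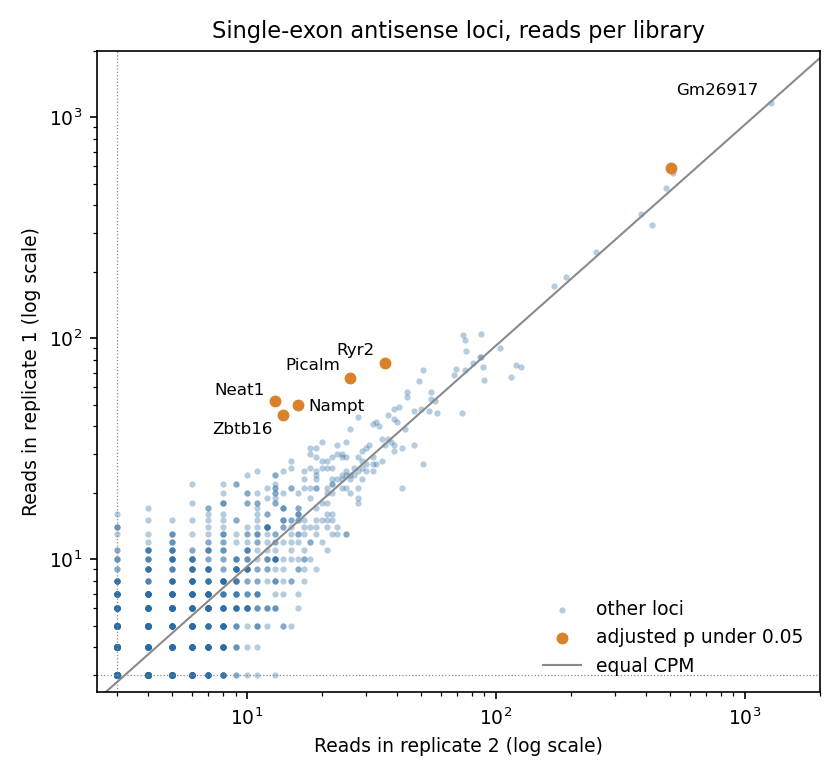
Reads of each of the 1246 loci in replicate 2 (horizontal, log axis) and replicate 1 (vertical, log axis), with equal CPM as a line, the limit of 3 reads dotted, and the 6 loci past an adjusted p of 0.05 in orange. All 6 lie above the line, and the highest locus, Gm26917, lies on it.

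The antisense share was compared as well, to ask whether antisense reads differed between the libraries apart from the sense gene. Fisher's exact test, adjusted over 706 single-exon and spliced antisense loci of which 18 (2.55%) passed, called 3 of 654 of the loci here. The 706 were not held to the read rule, which removes unequal loci, so the count of 3 describes the loci kept. Klf9, a Krüppel-like factor, had an antisense share of 46.9% in replicate 2 (23 antisense and 26 sense reads) and 4.38% in replicate 1 (13 and 284), with an adjusted p of 7.17e-11 by Fisher's exact test. Gse1 had 8.82% in replicate 2 and 53.3% in replicate 1, with an adjusted p of 0.00816 by Fisher's exact test. Cavin1 had 54.2% in replicate 2 and 75% in replicate 1, with an adjusted p of 0.0191 by the same test. Each call was lost by Fisher's exact test when sense reads of the genomic class were counted. The share at Gse1 was then 3.33% in replicate 2 (87 sense reads) and 19.8% in replicate 1 (65), with an adjusted p of 0.0510, so its ratio between the libraries stayed of like size. At Klf9 it was 11.9% in replicate 2 (171 sense reads) and 4.35% in replicate 1 (286), with an adjusted p of 0.0981, and at Cavin1 53.3% in replicate 2 (91) and 56.6% in replicate 1 (69), with an adjusted p of 1.0, all by that test. At an unadjusted p of 0.05, 38 of 654 passed.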

How the data were processed

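Long reads of 2 heart libraries were counted per transcript model. The deposited tables give these counts as whole numbers. Per a note deposited beside them, the authors counted filtered alignments to mm10 against GENCODE M21, for each library alone, and per the file headers TALON built the models. Aligner, filter settings and versions were not given in the sources used here. Labels call the libraries biological replicates but leave unclear whether they came from separate animals, and p-values cover counting error between them. Coordinates are 1-based.

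Antisense models of 1 exon were merged where they shared at least 1 base on a strand. CPM used reads of all classes but genomic, spike-ins left out. Libraries were compared by exact binomial and Fisher's exact tests (scipy 1.17.1) with Benjamini-Hochberg adjustment, because 1 library on each side leaves edgeR no residual degrees of freedom. edgeR 4.0.16 and DESeq2 1.42.0 on R 4.3.3 gave other scalings. The tests were tested on simulated data. Sequence came from GENCODE M21 transcripts, and gene starts from the RefSeq table of GRCm38.p6; a genome was not used here. The members and lists were chosen with earlier results of these data known. Loci are named for the 12 highest in CPM, the 5 highest ratios to sense (at least 20 reads on each strand), the 5 highest intronic, the 5 longest, the 3 highest with under 3 sense reads, up to 5 called each way and 2 per list. One locus that these rules name is not reported here. Other named genes, such as Trdn, Cacna1c, Ppargc1a, Myh6, Tpm1, mt-Nd6, Stk35, the 3 share calls and genes with several loci, were chosen after their values were seen. Other read minimums, merges and scalings were tried, and sense reads of the named gene alone, an alternative chosen after seeing the data.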

Additional observations from a re-analysis of the deposited data

Results flagged for a closer look

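Antisense reads on the ERCC spike-ins, which the comparisons above leave out, numbered 104 in replicate 2 and 120 in replicate 1, above the 3 reads that a count of 0 allows. They fell on 4 spike-ins, the same in both libraries, and those 4 had 0 sense reads in either. Whether their reference sequences are stored on the other strand could not be settled here. If they are, these would be sense reads.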

How the results depend on the processing

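The number of loci followed the read rule, with 4655 at 1 read, 630 at 5 reads and 259 at 10 reads in each library, while merging by at least 50% of the shorter model gave 1218 and merging spliced models in gave 1284. At 10 reads in each library the summed level was 11942.6 CPM, 75.7% of loci overlapped an exon against 58.3% at 3 reads, and 14 list genes held a locus against 43. With at least 50% of the locus in exons, 310 loci counted as exonic against 727. Leaving out a library gave summed levels of 17200.2 to 19129.0 CPM and median antisense shares of 19.1 to 21.4%, and the share was 17.2% with the genomic class counted as sense. With that class counted, Fisher's exact test called 0 loci for antisense share, against 3, and 35 loci against 38 had an unadjusted p under 0.05. Testing loci without annotated genes gave 10 calls in place of 6, 2 of them higher in replicate 2, with fewer features in the adjustment. The other settings gave 5 or 6 calls, all lower in replicate 2. In 18 recalculations, with other scalings or no read minimum, each call kept its direction and its side of the threshold. Merging by at least 50% of the shorter model gave 5 calls, and single calls were not followed under that merge. Adenine shares of 42.8 to 47.3% came from the other windows and weights tried. No paired analysis was possible because the libraries form 1 group. Depth limits most loci, whose median of 6 reads leaves wide counting intervals.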
